A study of Mus musculus with 4 samples.

Results

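The genes described here are 46 members of the BMP and TGF-beta pathway, chosen by name for their place in the pathway. The rule used no measured values, but earlier results of these data were known when the genes were chosen. They are 13 ligands, 8 ligand traps and pseudoreceptors (together called traps below) and 4 genes of the latency and processing machinery. The others are 11 receptors, 8 SMADs and 2 co-repressors. The readout was the accessible chromatin around the 46 genes, mapped by ATAC-seq, a method that uses a transposase to cut and tag open DNA. Of 79122 accessible regions, 70877 had a protein-coding gene within 100 kb and were given to the nearest one, and 441 of these lay nearest to a member. A region was found for 45 of the 46 genes; Bmp5, a BMP ligand, had none.

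The cells were hair follicle stem cells, the resting CD34-positive cells of the follicle bulge, sorted from the back skin of males at postnatal day 70, when follicles rest in their second telogen. The 2 wild-type (WT) mice, 13 and 15, carried the strain label NFIBfl/fl;NFIXfl/fl;R26-YFPfl/fl, so the controls also held both floxed genes and the YFP reporter, without Cre. The 2 double knockout (dKO) mice, 14 and 16, carried Sox9-CreER in addition, a tamoxifen-inducible Cre under the promoter of Sox9, a gene of the follicle lineage; when Cre was induced is not given in the sources used here. Nfib and Nfix encode nuclear factor I (NFI) transcription factors. The sort excluded cells with DAPI or Sca-1 signal and kept those with integrin alpha 6 and CD34, and dKO cells were also selected for YFP, so the gates differed between genotypes. Each genotype had 1 deposited peak list for its 2 mice, so there is no spread between mice, no replicate check and no test of any genotype difference; intervals below are 95% Wilson or normal intervals that cover counting error only.

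BMPs, growth and differentiation factors, activins and TGF-betas bind pairs of type I and type II receptor kinases, which phosphorylate receptor SMADs that then enter the nucleus with SMAD4. Secreted antagonists such as noggin and follistatin keep ligand from the receptors, latent TGF-beta binding proteins hold TGF-beta in the matrix, and SMAD6, SMAD7, SKI and SKIL restrain the signal inside the cell. In the hair follicle, BMP signals are known to keep bulge stem cells at rest, and TGF-beta2 from the dermal papilla is known to counter them when a new hair cycle starts.

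Promoter sequence is printed for 7 members to show the sequence at the starts of genes whose surrounding regions differed between the lists. Bmp4 was the member whose promoter window lay in a region found in WT alone. Fstl1, Gdf10, Bmpr2, Ski and Tgfbr1 had WT-only regions in excess by at least 4 and Ltbp1 had the largest excess of dKO-only regions, each with a promoter window that overlapped a region of both lists. Bmp7, Fst and Tgfbr3 also had an excess of 4 and a shared region at a gene end, but had no window in the promoter table. Of the 250 bases printed, the shared region covered all for Gdf10, Tgfbr1 and Ltbp1, 148 for Fstl1, 136 for Bmpr2 and 8 for Ski. Each run is the 250 bases before the transcription start from RefSeq (GRCm38.p6), read 5′ to 3′ on the gene's strand, with the SMAD-type letters GGCGCC in capitals.
Bmp4 (chr14:46390670-46390919, minus strand): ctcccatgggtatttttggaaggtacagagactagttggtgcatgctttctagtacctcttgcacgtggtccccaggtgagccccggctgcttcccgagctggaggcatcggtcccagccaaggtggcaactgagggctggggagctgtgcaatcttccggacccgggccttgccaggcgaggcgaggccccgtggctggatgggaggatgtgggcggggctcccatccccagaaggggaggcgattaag
Fstl1 (chr16:37776805-37777054, plus strand): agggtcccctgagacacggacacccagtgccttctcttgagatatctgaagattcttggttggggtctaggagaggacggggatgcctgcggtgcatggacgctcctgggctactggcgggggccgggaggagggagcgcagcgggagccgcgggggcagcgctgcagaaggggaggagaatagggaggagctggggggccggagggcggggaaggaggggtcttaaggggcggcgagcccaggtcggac
Gdf10 (chr14:33923337-33923586, plus strand): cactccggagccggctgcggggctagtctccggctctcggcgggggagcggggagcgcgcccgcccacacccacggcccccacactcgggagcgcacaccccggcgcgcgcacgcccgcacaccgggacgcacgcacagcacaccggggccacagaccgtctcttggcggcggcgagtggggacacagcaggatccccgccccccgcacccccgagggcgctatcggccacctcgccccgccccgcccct
Bmpr2 (chr1:59764029-59764278, plus strand): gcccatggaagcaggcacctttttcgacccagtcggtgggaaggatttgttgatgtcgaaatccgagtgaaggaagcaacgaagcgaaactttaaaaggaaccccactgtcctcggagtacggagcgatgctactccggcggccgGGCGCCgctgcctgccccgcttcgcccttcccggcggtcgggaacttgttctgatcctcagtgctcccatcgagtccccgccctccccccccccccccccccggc
Ski (chr4:155222536-155222785, minus strand): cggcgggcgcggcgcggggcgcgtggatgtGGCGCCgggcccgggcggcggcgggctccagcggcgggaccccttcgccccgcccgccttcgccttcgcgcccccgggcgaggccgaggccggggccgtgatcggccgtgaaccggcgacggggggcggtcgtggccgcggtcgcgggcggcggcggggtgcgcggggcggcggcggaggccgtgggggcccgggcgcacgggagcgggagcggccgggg
Tgfbr1 (chr4:47352972-47353221, plus strand): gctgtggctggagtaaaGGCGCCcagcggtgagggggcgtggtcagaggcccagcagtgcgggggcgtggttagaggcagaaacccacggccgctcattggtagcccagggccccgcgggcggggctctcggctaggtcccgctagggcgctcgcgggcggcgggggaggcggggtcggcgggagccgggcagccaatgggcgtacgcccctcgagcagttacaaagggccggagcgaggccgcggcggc
Ltbp1 (chr17:75005279-75005528, plus strand): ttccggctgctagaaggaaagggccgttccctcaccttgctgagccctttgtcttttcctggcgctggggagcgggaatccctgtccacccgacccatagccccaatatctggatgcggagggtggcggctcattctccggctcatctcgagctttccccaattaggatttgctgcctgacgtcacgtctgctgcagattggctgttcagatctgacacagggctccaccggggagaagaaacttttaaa

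Of the 46 members, 31 matched at least 1 RefSeq promoter window, 37 windows in all, each of 250 bases before and 50 after a start, and some windows of 1 gene overlap. For 28 of these genes (90.3%) a window overlapped a region shared by both lists by at least 1 base, against 58.1% of 17491 coding genes. The start site itself lay in a shared region at 25 (80.6%), against 56.9%. The overlap ranged from 58 to 300 of the 300 bases with a median of 300, and was under 100 bases at Acvr2b, Bmpr1a, Ski and Tgfb1; at Acvr1b, Acvr2b and Bmpr2 it did not reach the start site. The others were Bmp4, in a WT-only region, and Bmp5 and Bmpr1b, whose windows overlapped no region. The Bmpr1b windows lay inside its gene body. The 5′ end of that gene body lay in a shared region, chr3:142168651-142169640, and had no window. The letters TTGGC and GCCAA with 5 bases between them, the full NFI motif, were in 0 of 37 member windows and in 0.0365% of 32851 windows in all, searched on both strands. The shorter NFI letters TTGGCA were in 5 member windows (13.5%), against 14.1% of all windows and 10.4% of 12006 coding windows in shared regions. GGCGCC was in 12 (32.4%), against 11.9% and 23.3%, and the member windows were richer in G and C, with a median of 66.7% against 52.7% and 62.0%. The short SMAD letters GTCT were in 33 (89.2%), against 88.0% and 84.7%, and the palindrome GTCTAGAC, which contains GTCT, was in 1, at Smad6, against 0.213% of all. These matches describe letters in the windows and not binding.

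The lists held 68197 WT and 63548 dKO peaks. The median pileup, the number of reads or fragments stacked at the summit, was 73 for WT and 38 for dKO, and the lowest local background was 5.29 and 2.73, a ratio of 1.94. A region found in the WT list alone therefore cannot be told apart from one that was too shallow to be called in the dKO list. Regions were also counted at marker genes of skin cell types. All 10 stem cell markers had a region at a gene end, as did 4 of 8 fibroblast and dermal papilla and 2 of 5 endothelial markers. So did 3 of 5 melanocyte, 1 of 5 immune and 4 of 5 interfollicular epidermis markers, while Lum, Tie1, Tyr, Itgam and Csf1r had no region. The share of all genes with a region at a gene end is not given here, so these counts do not check the sort. Regions of the fibroblast and dermal papilla markers were WT-only in 13 cases, dKO-only in 4 and shared in 21, and those of the endothelial markers 10, 5 and 18 and of the melanocyte markers 10, 6 and 28. The stem cell markers had 28, 31 and 107 in the same order, the interfollicular epidermis markers 3, 5 and 8, and the immune markers 2, 3 and 2. The part of other cells in the members' counts was not tested.

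Most accessible regions of the BMP and TGF-beta genes were present in both genotypes: 287 of 441 (65.1%, interval 60.5 to 69.4) were shared. In the WT list alone there were 101 (22.9%, 19.2 to 27.0), and in the dKO list alone 53 (12.0%, 9.31 to 15.4). Over all regions given to a gene, 21.2% were WT-only and 12.8% dKO-only, and both values lie inside the members' intervals. The net share, WT-only minus dKO-only, was 10.9 points (half-interval 5.42) for the members and 8.35 points (0.425) for all regions. The lead of WT-only regions at the pathway was thus not distinguishable from that of accessible chromatin as a whole.

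Counted by gene, 35 members had a WT-only and 28 a dKO-only region. The share over all genes was not computed for these 2 counts, so they are not read as particular to the members. At 16 of the 45 (35.6%) WT-only regions led by at least 2, and at 3 (6.67%) dKO-only regions did, against 14.1% and 5.46% of 15636 genes with a region. Members had a median of 9 regions and all genes 2, and a gene with more regions can reach a lead of 2 more easily. Among genes with at least 5 regions, the shares were 15 of 34 members (44.1%) towards WT and 3 (8.82%) towards dKO, against 37.6% and 14.2%. The number of regions was still not matched at this limit, with a median of 11 for the members and 8 for all such genes. Any lead, also of 1, was towards WT at 26 members (57.8%) and towards dKO at 8 (17.8%), and 11 were even. Over all genes with a region, it was towards WT at 34.2% and towards dKO at 16.5%. Among genes with at least 5 regions, any lead was towards WT at 21 of 34 members (61.8%) and towards dKO at 6 (17.6%), against 56.8% and 26.0% of 4481 genes. Tgfb1, Tgfb3, Twsg1, Bambi, Ltbp3 and Acvr1b had regions in shared form only. These were 6 of 45 members, against 6796 of 15636 genes. Among genes with at least 5 regions they were 2 of 34 members, against 187 of 4481 genes.

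**Figure D1:**
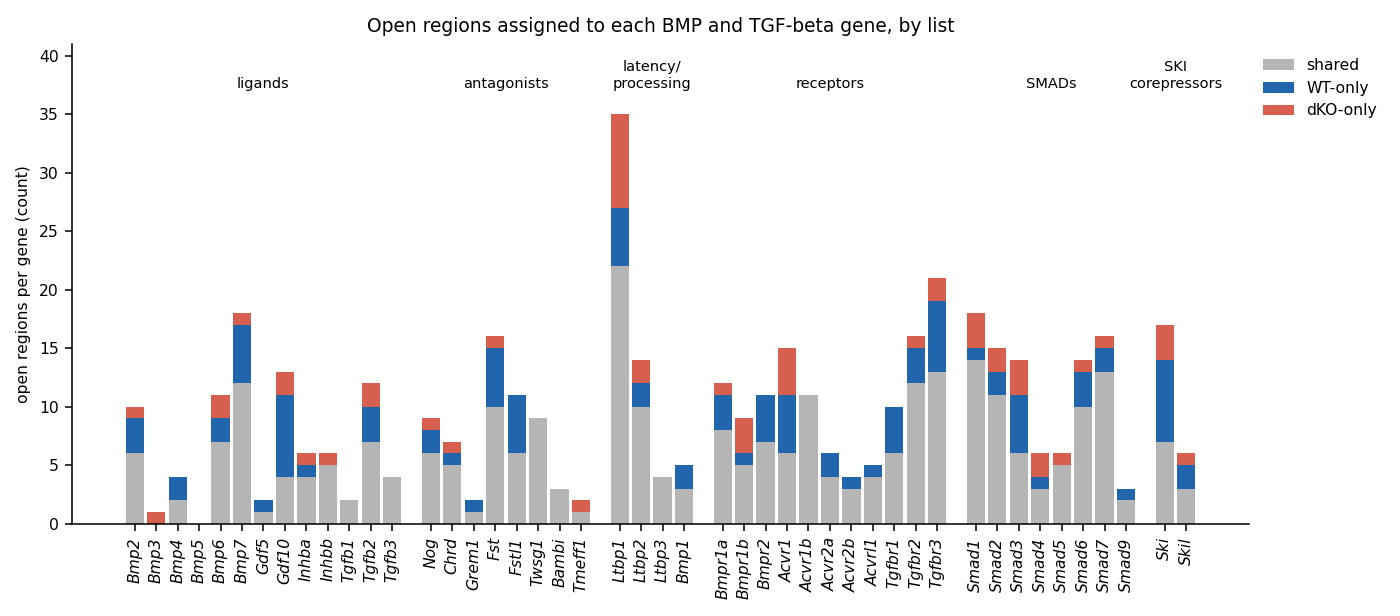
Number of open regions nearest to each of the 46 genes, grouped by role, with WT-only, dKO-only and shared regions stacked. Ltbp1 and Tgfbr3 have long bars, most genes show more WT-only than dKO-only regions, and Bmp5 is empty.

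The roles differed in their counts, each within wide limits; where 3 counts follow each other, they are WT-only, dKO-only and shared, in this order. Receptors, which bind the ligands, had 30 regions in WT alone, 11 in dKO alone and 79 in both, a net share of 15.8 points (half-interval 10.1). Ligands had 24, 11 and 54 (14.6, 12.7), and traps had 14, 4 and 41 (16.9, 13.4). The co-repressors Ski and Skil had 9, 4 and 10 (21.7, 29.4). SMADs, the intracellular carriers of the signal, were near balance with 15, 13 and 64 (2.17, 11.3), as was the latency group with 9, 10 and 39 (−1.72, 14.7), and the sign of both changed under some alternatives. All 6 intervals contain the 8.35 points of all regions, and differences between roles were not tested.

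**Figure D2:**
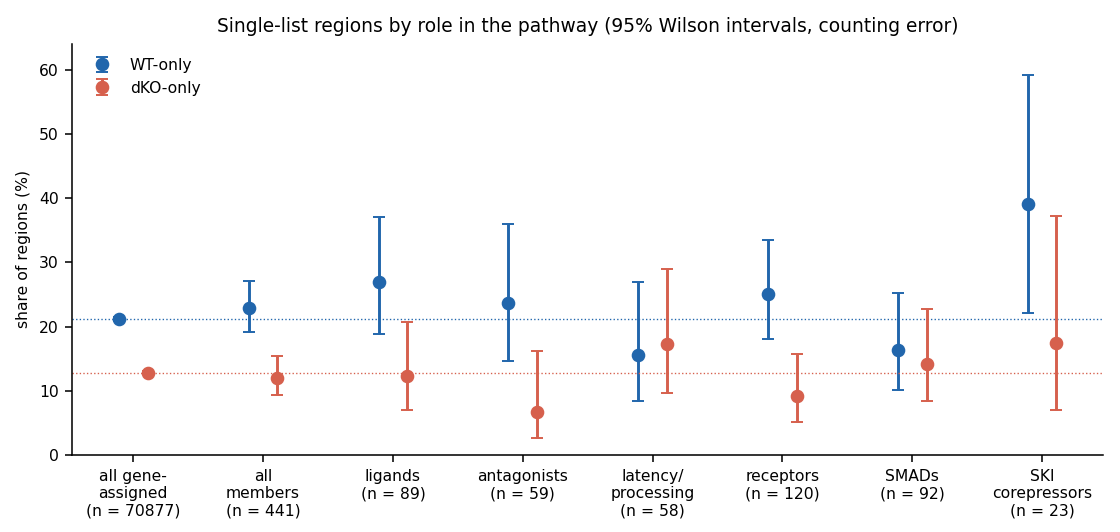
Share of WT-only and dKO-only regions in each role group with 95% Wilson intervals, in percent of the group's regions, beside all regions given to a gene. Receptors show 25% WT-only against 9.17% dKO-only, the latency group 15.5% against 17.2%, and the intervals of the small groups are wide.

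Member regions at gene ends were mostly shared by both genotypes. Each region was placed by its midpoint, against the ends of any protein-coding gene. A wide region that spanned a start could thus count as inside the gene, as at Bmp2, Bambi and Tgfb1. With a midpoint within 1 kb of a gene end there were 42 member regions at 37 genes. Of these, 38 (90.5%) were shared, 4 (9.52%, 3.77 to 22.1) WT-only and 0 dKO-only, which allows up to 8.38%. Over all genes, 90.2% of such regions were shared, 6.27% WT-only and 3.51% dKO-only. Inside gene bodies, 54 of 219 member regions (24.7%) were found in WT alone and 36 (16.4%) in dKO alone, against 25.6% and 14.3% over all genes. Between genes the counts were 43 of 180 in WT alone (23.9%, 18.2 to 30.6) and 17 in dKO alone (9.44%, 5.98 to 14.6), against 22.8% and 15.7%. With gene ends widened to 2 kb, 82.8% of member regions at gene ends were shared. No dKO-only member region had its midpoint within 1 kb of a gene end. The 3.51% over all genes lies below the members' upper limit of 8.38%.

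The 4 exceptions at gene ends belonged to Bmp4, Gdf5, Smad9 and Bmpr2. The Bmp4 region, chr14:46390396-46391026, had a deposited fold over local background of 3.26 and a −log10 q of 7.23, and it covered the promoter printed above. That of Gdf5, a ligand of joint and limb development, at chr2:155939493-155940566, had a fold of 9.94 and a −log10 q of 52.3. That of Smad9, a BMP receptor SMAD, at chr3:54802045-54802298, had a fold of 2.84. The Bmpr2 region at chr1:59764712-59765106, with a fold of 2.06, lay 560 bp from the nearest dKO peak. Of these 4, the Gdf5 region had the highest fold and the Bmpr2 region the lowest.

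Single-list regions were narrower and weaker than shared ones in both lists. A shared region spans the joined peaks of both lists, so its width is larger in part by construction. How often a weak peak missed the call in the other list was not tested. The median width was 385 bp for WT-only, 348 bp for dKO-only and 953 bp for shared member regions, near the 412, 380 and 998 bp of all regions. Within the WT list the median fold was 3.82 in WT-only and 6.27 in shared member regions, and within the dKO list 3.86 in dKO-only and 6.45 in shared ones. Over all regions the corresponding medians were 4.07 and 7.55, and 4.08 and 7.49, so the members' shared regions had lower medians than all shared regions. In the stronger 50% of its list by fold, WT-only member regions numbered 12 (2.72% of member regions) and dKO-only 7 (1.59%), against 3.89% and 1.74% over all regions. Few of the single-list regions of this pathway were therefore strong ones.

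**Figure D3:**
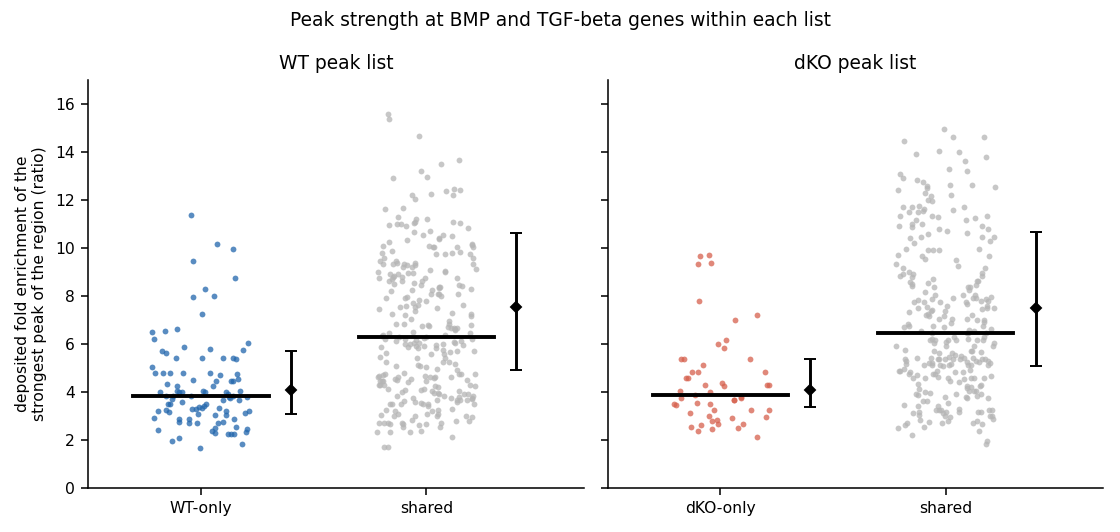
Deposited fold over local background of member regions within each peak list, single-list regions beside shared ones; each point is a region, lines are the members' medians, and diamonds with bars are the median and quartiles of all regions given to a gene. Single-list regions lie low in both lists, with medians of 3.82 in WT and 3.86 in dKO, and a few reach a fold near 10.

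Some single-list regions lay beside an open region of the other genotype. Of the WT-only member regions 14 of 101 (13.9%, 8.44 to 21.9) were within 1 kb of a dKO peak, with a median gap of 4.43 kb, against 10.1% and 5.91 kb over all regions. Of the dKO-only member regions 12 of 53 (22.6%, 13.5 to 35.5) were within 1 kb of a WT peak, with a median gap of 3.46 kb, against 10.8% and 7.14 kb. At Acvr1, a BMP type I receptor, a WT-only region at chr2:58524617-58524888 and a dKO-only region at chr2:58524959-58525509 were only 70 bp apart. This measure was chosen after the values were seen.

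Among the ligands, Gdf10 (BMP3b) had 7 regions in WT alone, 2 in dKO alone and 4 in both, the most WT-only regions of any member together with Ski. Of the 7, 3 followed each other over 12.965 kb at chr14:33841774-33854738 with no dKO peak between them, upstream of the gene at chr14:33923587-33936514. Their folds were 5.79, 6.61 and 8.76 with −log10 q of 33.9, 44.5 and 45.5, at 81.5, 79.9 and 69.5 kb before the start. The other 4 were weaker, with folds of 5.41 at 56.3 kb and 3.34 at 7.38 kb before the start, and 3.98 and 3.82 inside the gene. The 2 dKO-only regions had folds of 4.82 and 3.76, at 90.6 and 44.7 kb before the start. The promoter region itself was shared, with deposited folds of 5.95 (WT) and 5.90 (dKO).

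Bmp4, the BMP ligand of many epithelial and mesenchymal tissues, had 2 regions in WT alone, no in dKO alone and 2 in both. Its other WT-only region, 1.87 kb from the gene end at chr14:46381286-46381818, had a fold of 3.98. A shared region 7.81 kb before the start had folds of 4.61 (WT) and 9.66 (dKO), and one inside the gene 4.67 and 5.37. Both lists thus held an open site on either side of the Bmp4 start region, which was called in WT alone.

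**Figure D4:**
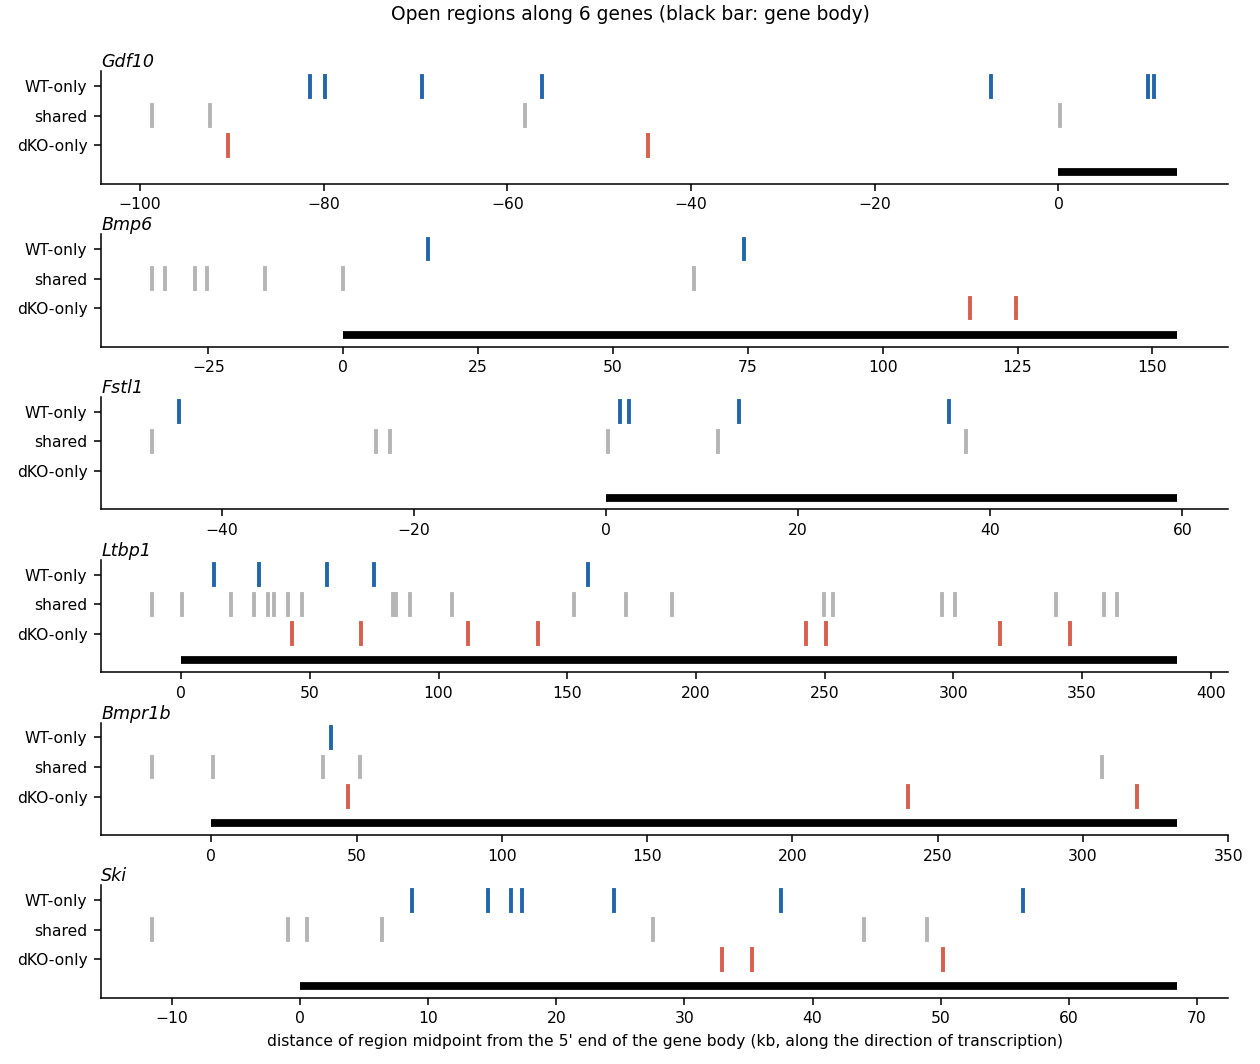
Regions along 6 genes (Gdf10, Bmp6, Fstl1, Ltbp1, Bmpr1b and Ski) by signed distance in kb from the 5′ end of the gene body, in the direction of transcription, with 1 row per class and the gene body as a black bar. At Gdf10 a run of WT-only regions lies 69.5 to 81.5 kb before the start, and at Ski 5 WT-only regions follow each other inside the gene.

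Bmp2 had 3 regions in WT alone, 1 in dKO alone and 6 in both, and its dKO-only region, chr2:133483889-133485243 at 67.3 kb from the gene, had the highest fold of any dKO-only member region, 9.71 with a −log10 q of 35.8. Its WT-only regions had folds of 3.98, 5.88 and 3.76. Bmp7, a BMP ligand, had 5, 1 and 12, with WT-only folds of 1.64 to 4.23 and a dKO-only fold of 3.22. Bmp6 was even with 2, 2 and 7 and held strong regions of both kinds: a WT-only one at chr13:38419461-38420439 with a fold of 11.4, the highest of the WT-only member regions, and dKO-only ones 116.3 and 124.7 kb past the start with folds of 9.39 and 9.66. Its shared region at chr13:38312131-38313114 had the highest −log10 q of the shared ligand regions, with folds of 11.2 in WT and 12.3 in dKO.

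The remaining ligands had a lead of at most 1. Tgfb2 had 3 regions in WT alone, 2 in dKO alone and 7 in both, the 3 in a run over 36.807 kb at chr1:186638089-186674895. Inhba, which encodes the activin A subunit, had 1, 1 and 4, and its region 0.570 kb from a RefSeq start, chr13:16011273-16012881, had a pileup of 212 in WT and 206 in dKO with folds of 9.57 and 13.8. Inhbb, the activin B subunit, had 0, 1 and 5, Gdf5 1, 0 and 1, and Bmp3 a single dKO-only region. Tgfb1 and Tgfb3 had 2 and 4 shared regions.

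Of the traps, Fstl1, a follistatin-like secreted protein, had 5 regions in WT alone, no in dKO alone and 6 in both. Of the 5, the one 44.4 kb before the start had a fold of 3.42 with a pileup of 151 and a −log10 q of 34.7, and 4 lay inside the gene, the strongest at chr16:37812505-37813012 with a fold of 5.36. The others had folds of 2.42 to 3.02. Fst (follistatin, the activin trap) had 5, 1 and 10, of which 3 WT-only ones ran over 4.009 kb at chr13:114447272-114451280, with folds of 4.25, 2.24 and 2.38, next to the gene at chr13:114452262-114458989. Its dKO-only region, 7.43 kb from the gene on the other side, had a fold of 6.97 and was the strongest dKO-only region of the traps by −log10 q. Among regions in the stronger 50%, Fst had 1 more dKO-only than WT-only region, so its direction turned when weaker peaks were left out.

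Nog (noggin), a BMP trap, had 2 regions in WT alone, 1 in dKO alone and 6 in both, with the strongest WT-only region of the traps by −log10 q (37.7, fold 3.08, pileup 192) 97.0 kb from the gene. Chrd (chordin) had 1, 1 and 5, Grem1 (gremlin) 1, 0 and 1, and the membrane protein Tmeff1 0, 1 and 1. The shared region at the Chrd promoter window, chr16:20732751-20734459, was not assigned to Chrd and is not in its counts. Twsg1 (twisted gastrulation) had 9 shared regions, and its start region chr17:65950244-65951663 had the highest −log10 q of the shared trap regions, with folds of 12.0 in WT and 14.5 in dKO. The pseudoreceptor Bambi had 3 shared regions.

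In the latency group, Ltbp1, which tethers latent TGF-beta to the matrix, had 5 regions in WT alone, 8 in dKO alone and 22 in both, the most dKO-only regions of any member. All 13 single-list regions lay inside the gene, chr17:75005480-75392512, which spans 387.033 kb. The strongest dKO-only one, chr17:75048136-75048639, had a fold of 5.84 and a −log10 q of 15.1, and the other 7 had folds of 2.92 to 4.56. The 5 WT-only ones had folds of 2.23 to 4.77. Ltbp1 had 1 more WT-only than dKO-only region when peaks were limited to q values of at most 1e-05, so its direction turned with the threshold.

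Ltbp2 had 2, 2 and 10, and its WT-only region 3.77 kb before the start had a fold of 4.72, a pileup of 176 and a −log10 q of 59.4. Ltbp3 had 4 shared regions. Bmp1, the protease that cleaves chordin and latent TGF-beta binding proteins, had 2 regions in WT alone, no in dKO alone and 3 in both, with WT-only folds of 2.89 and 3.05.

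Receptors of both branches had more WT-only than dKO-only regions. Of the BMP type I receptors, Bmpr1a had 3, 1 and 8, with folds of 2.43 to 3.65 in WT-only and 2.83 in the dKO-only region. Acvr1 had 5, 4 and 6, with the strongest WT-only region at chr2:58477059-58477608 (fold 7.24, −log10 q 42.2) and dKO-only folds of up to 5.99. The shared region at the Acvr1 promoter window, chr2:58566149-58567743, was not assigned to Acvr1 and is not in its counts. Bmpr1b had 1 regions in WT alone, 3 in dKO alone and 5 in both and was the receptor with an excess of dKO-only regions. Its dKO-only regions had folds of 9.33, 7.78 and 4.82, the first at chr3:141850561-141851457, and its WT-only region at chr3:142128169-142128734 had a fold of 8.28 and a −log10 q of 68.2.

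Of the type II receptors, Bmpr2 had 4 regions in WT alone, no in dKO alone and 7 in both; 2 of the WT-only ones were inside the gene with folds of 4.33 and 6.04, and 1 was 5.89 kb beyond it with a fold of 4.02, only 364 bp from a dKO peak. Acvr2a, an activin and BMP receptor, had 2, 0 and 4, with a WT-only region 79.6 kb before the start that had a fold of 7.97 and a −log10 q of 41.9. Acvr2b had 1, 0 and 3. Acvrl1 (ALK1, the endothelial type I receptor) had 1, 0 and 4, and Acvr1b (ALK4, the activin type I receptor) 11 shared regions.

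The TGF-beta receptors each had a lead towards WT. Tgfbr1, the type I receptor, had 4, 0 and 6, with WT-only folds of 2.88, 4.77, 4.68 and 3.15. Tgfbr2, the type II receptor, had 3, 1 and 12, and its WT-only region 56.8 kb before the start was the widest of all WT-only member regions at 1423 bp, with a fold of 6.48 and a −log10 q of 51.2. Tgfbr3 (betaglycan, the co-receptor) had 6, 2 and 13. Its WT-only region at chr5:107159699-107160858 had a fold of 7.98 and the highest −log10 q of the WT-only member regions, 78.8, and the other 5 had folds of 2.69 to 5.72. The 2 dKO-only regions of Tgfbr3 had folds of 3.76 and 4.01, and the latter was 450 bp from a WT-only region.

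The receptor SMADs were mixed. Smad3, for TGF-beta and activin, had 5 regions in WT alone, 3 in dKO alone and 6 in both, with the strongest WT-only region at chr9:63730739-63731417 (fold 9.46, −log10 q 41.2) and dKO-only folds of 3.00 to 4.56. Smad2, its partner, had 2, 2 and 11. Smad1, for BMP, had 1, 3 and 14 and led towards dKO by 2, with dKO-only folds of 2.60 to 3.77 and a WT-only fold of 5.62. Smad5 had 0, 1 and 5, with the highest −log10 q of the shared SMAD regions at chr13:56682052-56683279, folds 14.7 and 14.6, and Smad9 had 1, 0 and 2. The common partner Smad4 had 1, 2 and 3, so Smad4 and Smad5 each had 1 more dKO-only than WT-only region.

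The inhibitory SMADs had a few more WT-only regions. Smad6 had 3, 1 and 10, and its WT-only region at chr9:63941664-63942328 had the highest fold of the WT-only SMAD regions, 10.2 with a −log10 q of 42.8. Smad7 had 2, 1 and 13. Ski, which holds SMADs in a repressed complex, had 7 regions in WT alone, 3 in dKO alone and 7 in both, all but 1 of them inside or at the ends of the gene. Of the 7, 5 followed each other over 16.027 kb at chr4:155197887-155213913 with no dKO peak between them, but their folds were low, 2.23 to 3.84. The Ski region with the highest −log10 q, chr4:155172940-155174279, was shared, with folds of 10.5 and 11.8. Skil had 2, 1 and 3.

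Shared member regions peaked at nearly the same base in both genotypes. The median distance between the summits of the lists was 53 bp, and 29 of 287 (10.1%) were over 200 bp apart, against 45 bp and 10.2% over all shared regions. The largest distance was at the Nog start region, chr11:89301353-89303852, with 1589 bp, where 2 dKO peaks lay in 1 WT peak. It was followed by a region 64.1 kb from Fst with 1022 bp and by the gene end regions of Gdf5 with 988 bp and Smad6 with 923 bp.

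The 70 other genes of the pathway, listed by role, had 463 regions at 63 genes: 90 WT-only, 60 dKO-only and 313 shared, a net share of 6.48 points against 10.9 for the members and 8.35 for all regions. A lead of at least 2 was towards WT at 12 of the 63 genes and towards dKO at 4, against 14.1% and 5.46% of 15636 genes with a region. The number of regions per gene was not matched in this comparison. Direct targets of the pathway had 9 regions in WT alone, 9 in dKO alone and 63 in both. Id1, Id2 and Id3, transcriptional inhibitors that BMP switches on, had 0, 1 and 0 WT-only and no dKO-only regions beside 4, 8 and 6 shared ones, Id4 had 2, 2 and 7, and Msx2, a homeobox target, had 2, 4 and 8. Regulators such as the ubiquitin ligase Smurf1 (6, 2 and 8) had 26, 12 and 80, and the other receptors 12, 5 and 25. The other traps had 20, 18 and 72, with Bmper, a BMP-binding endothelial regulator, at 5, 8 and 25.

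The members' net share kept its sign under all 9 alternatives but moved from 1.63 to 18.3 points. It exceeded the net share of all regions in 7 of them and was below it in 2: with single-list regions from the stronger 50% (1.63 against 3.01) and with genes within 20 kb (9.28 against 9.36). With lists of equal length it was 5.42 against 2.58, and with the WT list scaled to the dKO background 8.10 against 6.68. Gdf10 kept a lead of at least 2 towards WT in all 9. Bmp4, Bmp7, Bmpr2, Fstl1, Gdf10, Tgfbr1 and Tgfbr3 kept theirs in the 8 other than the stronger 50%, and no other of the 19 genes with a lead of at least 2 did.

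**Figure D5:**
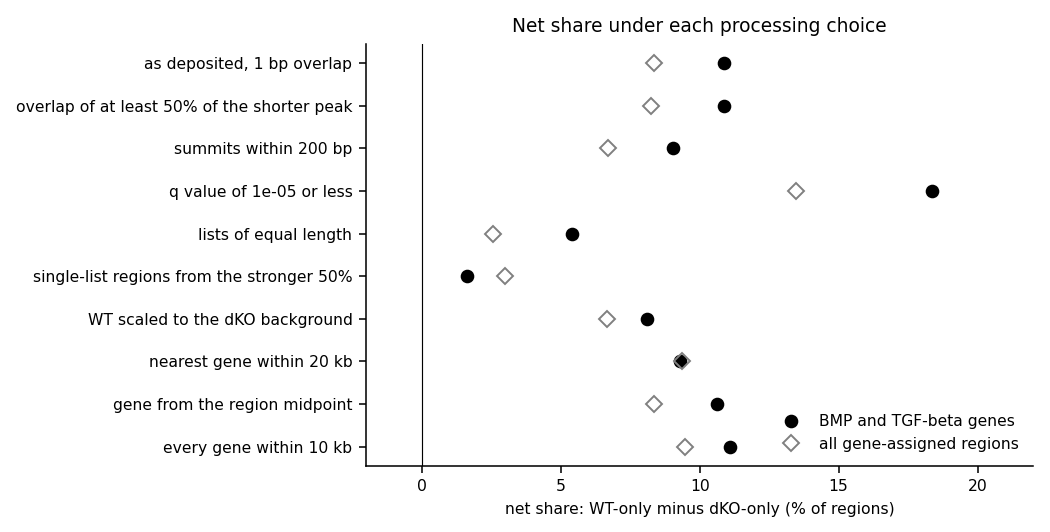
Net share of regions, WT-only minus dKO-only in percentage points, for the members and for all regions given to a gene under the main definition and 9 alternatives. All values are above 0, and the members lie below all regions for the stronger 50% and for genes within 20 kb.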

How the data were processed

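The labels assign 1 peak table to both mice of a genotype. Bowtie2 2.2.9, Picard and MACS2 are named, with no role or order, in the submitters' processing notes, as are the builds mm10 and GRCm38; the sources used here do not give how mice were combined, reads shifted or duplicates treated. The signal column deposited by the authors is the summit pileup, not scaled for depth. The fold column of the authors is the ratio of pileup to local background. The deposited −log10 q column had a damaged header and was told from the deposited −log10 p column by its place and by a Poisson p computed from the other columns; below an upper limit, that p equalled the deposited one to within 0.01 on the −log10 scale in 99.98% of WT peaks and 99.997% of dKO peaks. The lowest −log10 q of 1.30 is a q value of 0.05. These values were used within a list, and where both lists' values stand side by side their heights are not compared.

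Peaks that shared 1 bp or more formed a region (WT-only, dKO-only or shared), without 5 WT and 3 dKO mitochondrial peaks, and each went, by its summit, to the closest protein-coding gene body up to 100 kb away (RefSeq, GRCm38.p6, the assembly that mm10 names). The overlap step differed from bedtools 2.31.1 by 0 peaks, and the counting was tested on simulated data. Python 3.11.15, pandas 2.3.3, numpy 2.4.6, scipy 1.17.1 and matplotlib 3.10.9 were used.

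The members, gene lists and rules were chosen with earlier results of these data known. The rule for named genes gives counts for every member and describes those with a net count of at least 2, together with the strongest single-list and shared region of each role. Members were set against all regions or genes, and against genes with at least 5 regions. The 9 alternatives were an overlap covering 50% of the shorter peak, lists compared by summits at most 200 bp apart, q values of at most 1e-05, equally long lists, single-list regions from the stronger 50% of a list, the WT list scaled to the dKO background, genes within 20 kb, genes by region midpoint, and every gene within 10 kb. Peak sequences were not used here, since no genome of the build was at hand, and the exons that Cre removes were not analysed here.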

Additional observations from a re-analysis of the deposited data

How the results depend on the processing

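With 1 list per genotype and different mouse numbers in each, no mouse could be left out. No paired analysis was possible because the genotypes share no replicate number and each has 1 list. The members' net share (10.9 points) was 18.3 with q values of at most 1e-05, 5.42 with lists of equal length and 1.63 with the stronger 50%. The WT-only share (22.9%) was 27.3% with summits within 200 bp, 27.6% at the stricter q value and 3.92% with the stronger 50%; the dKO-only share (12.0%) was 18.3%, 9.30% and 2.29% in the same order. Members with a lead of at least 2 towards WT (16) numbered 9 with lists of equal length and 1 with the stronger 50%. The share of all genes with a region fell too, from 14.1% to 10.1% and 2.30% in the same order. Members with such a lead towards dKO (3) numbered 0 at the stricter q value and 0 with the stronger 50%. Over all genes that share went from 5.46% to 3.57% and 0.864%. The direction turned for Ltbp1 at the stricter q value (net 1 towards WT), and with the stronger 50% for the traps (net share −2.38), Bmp2 (net −1) and Fst (net −1). The turns of the traps and of Fst rest on the same region, the dKO-only Fst region with a fold of 6.97. The net share of groups near balance also changed sign: latency (−1.72) was 9.80 at the stricter q value, and SMADs (2.17) were −3.30 with lists of equal length, −1.10 with the WT list scaled, −1.45 with genes within 20 kb and −1.61 with every gene within 10 kb. The stricter settings hold fewer regions by construction; the cause of the other shifts was not tested. For the summary values, 32 alternatives were counted as close to the main value and 13 as moved. The close ones still include 11 members with a lead towards WT for genes within 20 kb and 20 at the stricter q value, against 16. For the 19 named genes a lead of at least 2 stayed in 127 alternatives, was 1 in 25 and 0 in 16, and turned in 3. The deeper WT list limits every WT-only count.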

Other observations

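Some members lie near each other, so a region between them could belong to either. Acvrl1 and Acvr1b are 28.7 kb apart on chromosome 15, and their regions were 1 WT-only and 15 shared. Smad3 and Smad6 are 195.1 kb apart on chromosome 9, and Gdf10 and Bmpr1a 474.5 kb on chromosome 14. The 4 single-list regions given to Smad3 and the 2 given to Smad6 between the genes were assigned by distance alone.

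The other latency genes, not described above, had 15 regions in WT alone, 10 in dKO alone and 51 in both. Itgb6, a subunit of the integrin that activates latent TGF-beta, had 5, 1 and 13, and Htra1, a secreted protease, had 0, 3 and 10. The other ligands had 8, 6 and 22.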
